A study of Homo sapiens with 6 samples.

Results

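The kallikrein gene family was followed in 22Rv1 cells after knockdown of MED12. The 10 names searched in the gene-level count table were KLK1, KLK2, KLK3, KLK4, KLK10, KLK11, KLK12, KLK13, KLK15 and KLKP1, and 11 of its 62703 genes carried one of them, because KLKP1 names 2 entries. 22Rv1 is a human prostate carcinoma line that responds to androgens and was described as resistant to enzalutamide. The 3 siCtrl libraries came from cells transfected with 25 pmol of a non-targeting siRNA pool, and the 3 siMED12 libraries from cells given the same amount of a pool against MED12. All cells were grown in medium with serum, with no other treatment, and were collected 3 days after transfection. The MED12 protein belongs to the kinase module of Mediator, the complex that connects transcription factors with RNA polymerase II. The comparison is limited to 1 cell line, 1 siRNA pool against MED12 and 1 time point.

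Kallikreins are secreted serine proteases, made as inactive precursors and activated by removal of a short propeptide. Their genes lie side by side on the long arm of chromosome 19. In the prostate, luminal epithelial cells secrete several of them into the seminal fluid under the control of androgens: KLK3 encodes prostate-specific antigen (PSA), which liquefies the semen clot by cutting semenogelins, and KLK2 encodes a trypsin-like protease that can activate the PSA precursor. KLK4 is an androgen-regulated prostate protease that also matures tooth enamel, KLK1 is the tissue kallikrein that releases kinins from kininogen, and KLKP1 is a pseudogene of the family.

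In GRCh38 coordinates, the members run along chromosome 19 from KLK1 (50819146 to 50823787, minus strand) over KLK15 (50825289 to 50837213, minus strand), KLK3 (50854915 to 50860764, plus strand), KLK2 (50861568 to 50880567, plus strand), KLKP1 (50882096 to 50896398, minus strand) and KLK4 (50906351 to 50911395, minus strand). Farther along lie KLK10 (51012739 to 51020175), KLK11 (51022216 to 51028039), KLK12 (51029092 to 51035230) and KLK13 (51055626 to 51065114), all on the minus strand. The exons of KLK1, KLK2, KLK3, KLK4, KLK11, KLK13 and KLK15 overlapped no other annotated gene. Those of KLK10 and KLK12 shared 240 and 160 bases with a non-coding gene on the opposite strand. KLK2 and KLK3 are closely related, but only 0.16% of the 50-base stretches of KLK2 transcripts were found in KLK3 transcripts and 0.217% in the reverse direction. Few exact stretches of this length, over all annotated transcripts, were thus shared. Matches with differences were not counted, so reads assigned to the wrong gene of the pair are not bounded by these values.

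KLK2 and KLK3 had the lowest log2 fold changes among the 7 members that passed the expression filter, and among the members' promoters examined theirs had the closest matches to the palindromic steroid response element. Both are therefore shown, from RefSeq (GRCh38.p14), as the 250 bases before the start site on the plus strand. Capitals mark the best match to the element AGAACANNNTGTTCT and, nearer to the start, a match to the TATA motif TATAAA, which reads TTTATA on this strand.
KLK3, chr19:50854665-50854914: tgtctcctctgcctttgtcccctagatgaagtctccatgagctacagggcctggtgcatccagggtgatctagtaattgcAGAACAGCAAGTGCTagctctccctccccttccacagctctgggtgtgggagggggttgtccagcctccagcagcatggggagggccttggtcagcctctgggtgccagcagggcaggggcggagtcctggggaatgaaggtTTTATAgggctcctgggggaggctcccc
KLK2, chr19:50873189-50873438: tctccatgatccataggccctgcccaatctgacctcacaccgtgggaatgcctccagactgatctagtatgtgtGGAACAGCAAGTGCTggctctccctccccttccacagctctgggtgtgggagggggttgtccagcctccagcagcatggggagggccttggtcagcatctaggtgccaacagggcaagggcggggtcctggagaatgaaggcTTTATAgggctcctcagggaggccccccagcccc

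The KLK2 start site of RefSeq used here, 50873439, lies inside the longer gene given by the Gencode annotation. Aligned over 241 bases, the 2 promoters were identical at 205 positions (85.1%), and the longest run without a difference held 80 bases. In KLK3 the element began at position -170, counted from the start site, and differed from the searched letters at 2 positions. In KLK2 it began at -176 and differed at 3 positions. A match with at most 2 differences occurred in 1.41% of the 35116 promoters in the RefSeq table (300 bases each, 50 of them after the start), and one with at most 3 in 10.8%. The element reads the same on both strands. Among the 8 members with a promoter in the table, 13 start sites were listed. The best matches of the other 6 members differed at 4 (KLK10 and KLK12) to 6 positions, and none came within 3. Over all promoters, 47% had a match with at most 4 differences. The half-site AGAACA (both strands, contained in the element) was found in the KLK3 promoter alone, against 14.8% of all promoters. TATAAA on either strand was found for KLK3, KLK2 and 1 of 2 start sites of KLK15, against 11.5% of all promoters, and the forkhead motif TGTTTAC on either strand for no member, against 3.42%. KLK1 and KLKP1 had no entry. These motifs were chosen after the KLK2 and KLK3 promoters had been read, and a match describes letters, not binding.

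The libraries held between 16136699 and 17012788 counts. MED12 itself was measured at 67.8, 77.7 and 72.6 CPM (read counts scaled to a common library size with TMM factors) in siCtrl replicates 1 to 3 and at 23.9, 14.97 and 30.1 CPM in siMED12 replicates 1 to 3. The siMED12 libraries thus kept less MED12 mRNA than any siCtrl library, and the lowest amount was in replicate 2 (-1.66 ± 0.23 SE as log2 fold change, with an adjusted p of 0.0314 in edgeR). All 10 prostate epithelial markers examined, among them HOXB13, EPCAM, KRT8, KRT18 and the family member KLK3, passed the expression filter. Of 12 markers of leukocytes, endothelium, fibroblasts and basal epithelium, 11 did not, with KRT5, KRT14, CD3E and CDH5 at 0 counts in all 6 libraries, whereas COL1A1 had 19.8 CPM ± 6.63 (SD, n = 3) in siCtrl and 20.1 CPM ± 5.74 (SD, n = 3) in siMED12. Because RNA was measured in bulk, fewer cells expressing a gene and less of its mRNA per cell cannot be told apart.

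Of the 11 entries, 7 passed the expression filter (KLK1, KLK2, KLK3, KLK4, KLK11, KLK15 and KLKP1). All 7 had a log2 fold change below 0, against 47.6% of the 17901 genes tested, and their median was -0.87, against 0.02 over all tested genes. At an adjusted p below 0.05, edgeR called 2 of them lower in siMED12, KLK4 and KLK1, and none higher (5 lower and 0 higher at an unadjusted p below 0.05, which 7.93% of all tested genes passed as lower). It called 0.413% of all tested genes lower and 0.151% higher. Libraries that shared a replicate number also shared part of their variation, and with the number as a block in the fit all 7 members were lower, against 16.2% of all tested genes (17.1% were higher). Without the expression filter, 4 members were lower (0.852% of the genes then tested), and 7 with the block (8.09%). Summed over the family, the siCtrl libraries held 621, 559 and 632 CPM, against 297, 234 and 333 CPM for siMED12. Within replicate numbers this amounted to -52.2%, -58.1% and -47.3%. KLK4 alone held a mean of 62.9% of the family counts in siCtrl and 62.1% in siMED12, so the sum largely follows that gene. The summed values did not overlap between groups, and the exact permutation test gave p = 0.1 (two-sided), the smallest value that 3 against 3 libraries allow.

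**Figure D1:**
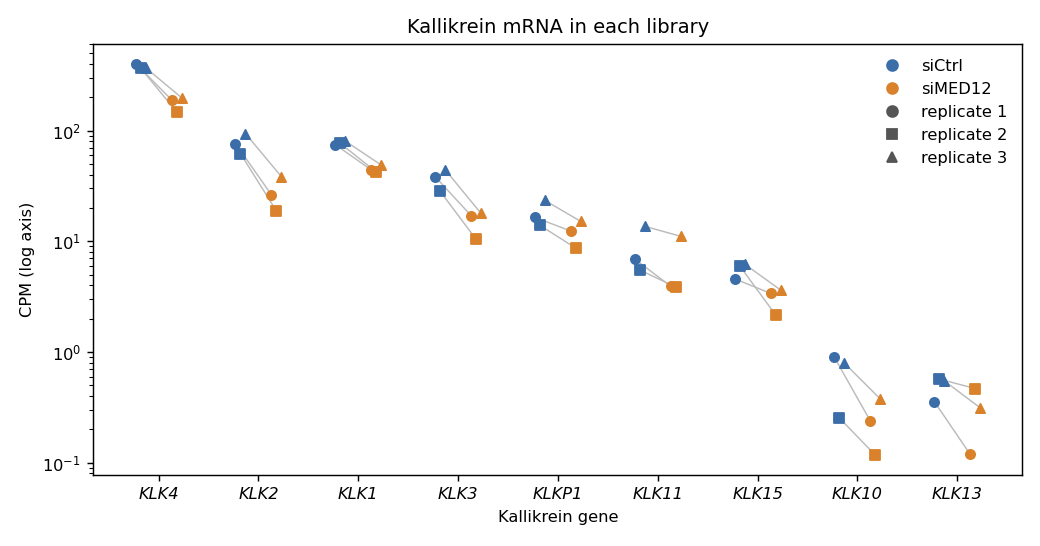
Level of each kallikrein gene in each library, in CPM on a log axis, for the 9 members with any counts. Blue symbols are siCtrl and orange symbols siMED12 libraries, the shape gives the replicate number, and grey lines join libraries of the same number. In KLK4, KLK2, KLK1, KLK3 and KLK15 every siMED12 library lies below every siCtrl library.

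KLK2 stood at 76.3, 61.9 and 93.9 CPM with the control pool and at 26.3, 18.8 and 38.3 CPM with the MED12 pool. Its highest siMED12 library was far below its lowest siCtrl library, although the siCtrl libraries themselves differed by a coefficient of variation of 20.7%. On the log2 scale the difference was -1.48 (SE 0.26), the lowest among the members and the 43rd lowest of all tested genes. Its adjusted p was 0.0537 by edgeR and 2.36e-19 with the replicate block, and limma-trend gave 0.0498. Within replicate numbers the change was -65.6%, -69.7% and -59.2%.

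For KLK3, siCtrl gave 38.3, 28.3 and 44.3 CPM, against 17.1, 10.4 and 17.8 CPM for siMED12. The groups were apart and the libraries followed the same order as for KLK2, with replicate 2 lowest and replicate 3 highest in both groups. In siMED12, replicates 1 and 3 were close (287 and 285 raw counts), and their order rests on the scaling. The log2 fold change of this PSA-encoding transcript was -1.29 (SE 0.24), with an adjusted p of 0.0617 by edgeR and of 5.12e-15 with the block. In edgeR with the expression filter and no block, KLK2 and KLK3 were thus not past the threshold, while without the filter their adjusted p-values were 2.02e-07 and 2.72e-05. Their log2 fold changes were the same in that fit (-1.48 and -1.29), which estimated the variance with 34030 genes together. The smaller p-values thus mark a change of fit, not a larger difference. The DESeq2 Wald test without a block gave adjusted p-values of 2.54e-06 and 3.51e-05 and called 4 members lower, against 3.42% of the genes it tested.

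KLK4 was the most abundant member in every library. It was measured at 402.5, 366 and 369 CPM in siCtrl and at 189, 148 and 198 CPM in siMED12, a log2 fold change of -1.09 (SE 0.12; adjusted p = 0.0271 by edgeR and 2.81e-20 with the block). The siMED12 mean was 47.0% of the siCtrl mean. Leaving out 1 library moved the adjusted p to between 0.0333 and 0.164, above 0.05 in 4 of 6 such fits, while the log2 fold change stayed between -1.17 and -0.99. In the blocked edgeR fit, leaving out both libraries of replicate 3 took the adjusted p from 2.81e-20 to 3.66e-122. The size of such small values is therefore no measure of replication.

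KLK1 had the tightest values of the family: 74.6, 76.5 and 80.3 CPM in siCtrl, with a coefficient of variation of 3.79%, and 44.1, 42.3 and 48.8 CPM in siMED12. The log2 fold change was -0.78 (SE 0.10; adjusted p = 0.0297 by edgeR and 2.51e-13 with the block), and the 3 replicate numbers gave -40.9%, -44.7% and -39.3%. Its call was lost without any one of 5 of the 6 libraries (adjusted p from 0.0384 to 0.201 over the 6 fits). KLK1 and KLK4 had the smallest spread among the siCtrl libraries, and they were the members called without the block.

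KLK15, which encodes a further protease able to activate PSA, was expressed at a much lower level. Its values were 4.58, 6.01 and 6.22 CPM for siCtrl, against 3.39, 2.16 and 3.63 CPM for siMED12, so the groups did not overlap. The change differed between replicate numbers, from -26.1% in number 1 to -64.0% in number 2. Its log2 fold change was -0.87 (SE 0.27), not past the threshold without the block (adjusted p = 0.174, edgeR) and past it with the block (0.000871).

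Groups overlapped for the other 2 tested members. KLKP1 was at 16.4, 13.9 and 23.4 CPM in siCtrl and at 12.4, 8.65 and 15.1 CPM in siMED12, with a log2 fold change of -0.57 (SE 0.26; adjusted p = 0.339 by edgeR). KLK11, first described in skin and brain and also made by prostate epithelium, was at 6.90, 5.50 and 13.7 CPM in siCtrl and at 3.92, 3.86 and 11.1 CPM in siMED12. In KLK11 replicate 3 was high in both groups, and the siMED12 library of that number exceeded 2 of the siCtrl libraries. The log2 fold change of KLK11 was -0.47 (SE 0.49; adjusted p = 0.724), and it became 0.01 without siCtrl replicate 3. With the block the adjusted p-values were 9.2e-05 for KLKP1 and 0.0106 for KLK11, both lower. Within numbers, KLKP1 changed by -24.8%, -37.8% and -35.4% and KLK11 by -43.2%, -29.9% and -18.9%.

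**Figure D2:**
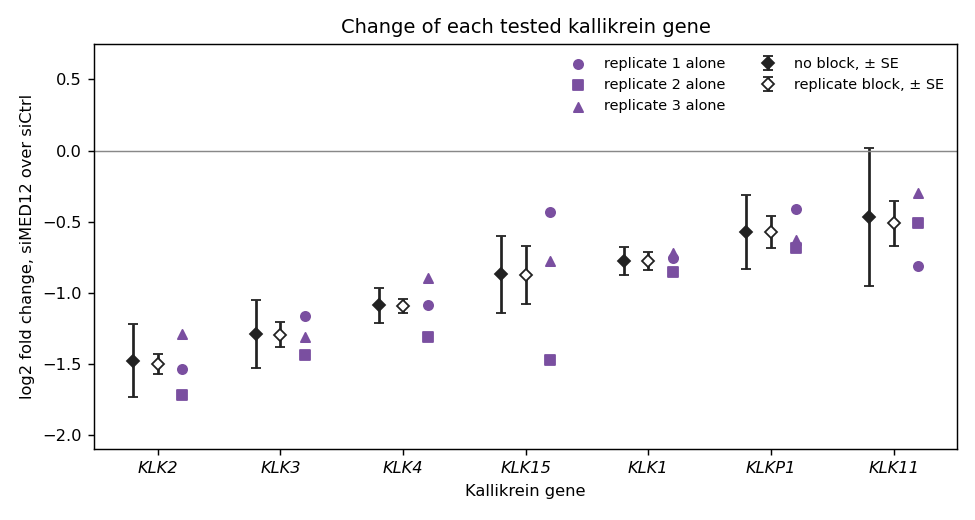
Log2 fold change of siMED12 over siCtrl for the 7 tested kallikrein genes. Filled diamonds are the edgeR estimate without and open diamonds with the replicate block, with bars of ± 1 SE, and purple symbols are the differences within each replicate number. Every symbol lies below 0, and the bars are shorter with the block than without it.

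KLK1, KLK2, KLK3, KLK4 and KLK15 did not overlap between groups and were lower in siMED12, against 10.9% of all tested genes. The log2 fold change was under -1 for KLK2, KLK3 and KLK4, as for 1.28% of the tested genes, and under -0.5 for all tested members but KLK11, as for 6.91% of the tested genes. All 7 tested members were lower in each of the 3 replicate numbers, against 27% of all tested genes. MED12 mRNA also fell the most in number 2, and 6 of the 7 members had their largest fall there, as did 50.5% of the genes that were lower in all 3 numbers. Within the siMED12 group, all 7 members had the same order of libraries as MED12 in CPM (replicate 2 lowest, replicate 3 highest), as had 18.6% of all tested genes. For KLK3 and KLK4 the top place of replicate 3 rests on the TMM factors (1.045 for replicate 1, 0.9923 for replicate 3). Their raw counts were 287 and 3189 in replicate 1 and 285 and 3163 in replicate 3, in libraries of 16147476 and 16136699 counts. KLK11 had 66 counts in both replicates 1 and 2. The siCtrl libraries showed a like order for most members, with replicate 2 lowest in 5 of 7 and replicate 3 highest in 6 of 7, although MED12 was highest in siCtrl replicate 2. Over the 6 libraries, the deviations of 2 members from their group means correlated at 0.43 (KLK4 and KLK11) to 0.96 (KLK2 and KLKP1) over the 21 pairs, with 0.91 for KLK2 and KLK3. These libraries share depth, scaling and replicate number, and what a replicate number stands for is not given in the labels.

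The 4 entries that did not pass the filter had few or no counts. KLK10, which is silenced in many tumours, had 15, 4 and 13 counts in siCtrl and 4, 2 and 6 in siMED12. KLK13 had 6, 9 and 9 counts in siCtrl and 2, 8 and 5 in siMED12. Both summed to less in siMED12 (12 against 32 and 15 against 24), with overlapping groups. Without the filter, edgeR gave log2 fold changes of -1.39 and -0.69 with adjusted p-values of 0.571 and 0.735. KLK12 had 0 counts in every library, which allows at most 0.175 to 0.190 CPM per library, counting error only. The shorter of the 2 KLKP1 entries, a pseudogene of 403 exonic bases (50887866 to 50888268), also had 0 counts. All of its bases lie in exons of the longer KLKP1 entry on the same strand, so its count says nothing of transcription there.

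Compared per kilobase of exon, the order of levels in siCtrl was KLK4 (189 CPM per kb ± 10.0), KLK1 (32.4 ± 1.23), KLK2 (12.2 ± 2.52), KLKP1 (9.36 ± 2.56), KLK3 (7.97 ± 1.74), KLK11 (2.79 ± 1.40) and KLK15 (1.80 ± 0.286), each as mean ± SD with n = 3. KLK13 and KLK10 followed at 0.190 ± 0.0453 and 0.170 ± 0.0906. The ranges of KLK2 and KLKP1, of KLKP1 and KLK3, of KLK11 and KLK15, and of KLK13 and KLK10 overlapped. Within libraries, KLK2 stood above KLKP1 and KLKP1 above KLK3 in all 3. KLK11 stood above KLK15, and KLK13 above KLK10, in only 2 of 3. In siMED12 the order of means was KLK4 (88.99 CPM per kb), KLK1 (18.9), KLKP1 (6.29), KLK2 (4.37), KLK3 (3.26), KLK11 (2.02), KLK15 (0.982), KLK13 (0.116) and KLK10 (0.0641). KLKP1 stood above KLK2 in each of the 3 siMED12 libraries and below it in each of the 3 siCtrl libraries, though the ranges of the pair overlapped in both groups. The siMED12 ranges of KLK2 and KLK3, of KLK3 and KLK11, and of KLK13 and KLK10 overlapped too. Lengths are those of all annotated exons together, so the scale depends on how many of them the cells use. KLK4 made up 73.9% ± 2.98 of the summed family level per kilobase in siCtrl and 71.2% ± 1.63 in siMED12 (SD, n = 3).

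Whether the 4 most abundant coding members changed by different amounts was tested on their ratios in each library. The log2 ratio of KLK2 to KLK1 was 0.03, -0.30 and 0.23 in siCtrl and -0.75, -1.17 and -0.35 in siMED12. KLK2 was thus lower relative to KLK1 in every number, with a mean difference of -0.74 between groups that did not overlap (exact permutation test, p = 0.1, adjusted p = 0.3 over 6 ratios). The ratio of KLK4 to KLK1 was also lower without overlap, with a mean of 2.30 in siCtrl and 1.98 in siMED12 on the log2 scale (exact permutation test, p = 0.1, adjusted p = 0.3). The ratio of KLK3 to KLK1 was lower in all 3 numbers, by -0.41, -0.59 and -0.59, but the groups overlapped. The ratios of KLK3 to KLK2, KLK4 to KLK2 and KLK4 to KLK3 overlapped between groups as well, with differences of 0.21, 0.42 and 0.21. Within replicate numbers, KLK4 to KLK2 was higher in all 3 (0.45, 0.41 and 0.40), as was KLK4 to KLK3 (0.08, 0.13 and 0.41), whereas KLK3 to KLK2 was not (0.37, 0.28 and -0.02). The exact sign-flip test over the 3 numbers cannot go below p = 0.25, its value for all ratios but KLK3 to KLK2 (0.5). None of the 6 ratios could reach an adjusted p below 0.1, and the adjusted p-values of the overlapping ratios lay between 0.36 and 0.4.

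The other kallikreins of the cluster were nearly silent. KLK5, KLK6, KLK7, KLK8 and KLK9 had between 0 and 7 counts in all libraries of a group together, and so did KLKB1, the plasma kallikrein gene, which lies outside the cluster and had 0. KLK14, a trypsin-like kallikrein that can activate other members, was the exception among the genes that carry the name but are not among the 10. It had 34, 21 and 49 counts in siCtrl and 26, 7 and 11 in siMED12, with a log2 fold change of -1.26 (adjusted p = 0.297 by edgeR and 0.00675 with the block).

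Genes within 100000 bases of a kallikrein gene were compared next, with the knowledge that genes near KLK3 had already been seen to be low. Of 32 such genes outside the family, 9 passed the filter, and all 9 had a log2 fold change below 0 (47.6% of all tested genes did), with a median of -0.62. None was called without the block (2 were lower at an unadjusted p below 0.05, against 7.93% of all tested genes), and 3 were lower with it, against 16.2%. C19orf48, annotated as a pseudogene whose interval also holds the small nucleolar RNAs SNORD88A, SNORD88B and SNORD88C, was at 506, 403 and 343 CPM in siCtrl and at 318, 230.5 and 213 CPM in siMED12 (log2 fold change -0.72, adjusted p = 0.123, and 2.2e-17 with the block). CLEC11A, a secreted growth factor gene, was at 6.25, 5.88 and 5.00 CPM in siCtrl and at 4.51, 3.10 and 3.82 CPM in siMED12 (-0.58, adjusted p = 0.275, and 0.0134 with the block). On the far side of the cluster, CTU1, which encodes a tRNA-modifying enzyme, had a log2 fold change of -0.22 (adjusted p = 0.721), and its groups overlapped. Beyond it, the non-coding gene ENSG00000269072.2 was the nearest to 0 (-0.03, SE 0.23). Within replicate numbers it changed by 27.3%, -23.3% and -1.68%. SHANK1, a postsynaptic scaffold gene at the opposite end, had -0.72 (adjusted p = 0.622) at a mean of 1.64 CPM in siCtrl. The third gene called with the block was an unnamed non-coding gene that overlaps KLK15 on the opposite strand without sharing exons (ENSG00000267968.1, 50830530 to 50851089), chosen for mention after its values were seen. It was at 0.833, 0.886 and 1.40 CPM in siCtrl and at 0.0594, 0.292 and 0.814 CPM in siMED12. A gene with few counts can pass the filter through siCtrl alone, as this one could, so for such genes the direction is partly set by the filter. Among near genes that did not pass, summed counts were higher in siMED12 for ACP4 (18 against 14), ENSG00000269681.1 (12 against 6) and GPR32P1 (3 against 0). They were lower for ENSG00000268375.1 (9 against 24), ENSG00000284711.1 (0 against 3) and SIGLEC7 (0 against 1).

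**Figure D3:**
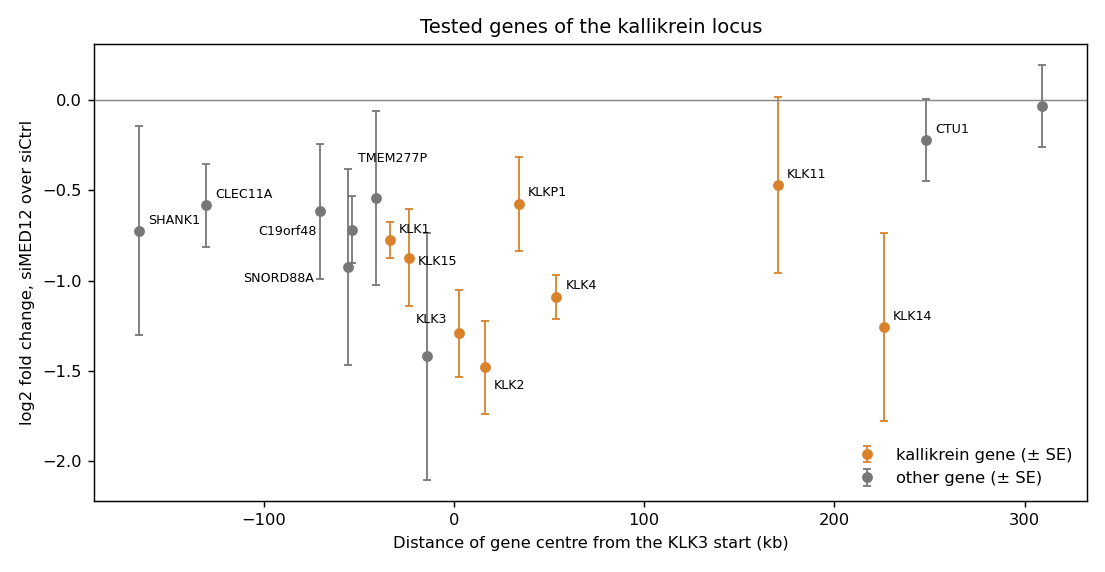
Log2 fold change without the block against the distance of each gene's centre from the KLK3 start, in kilobases, for the 17 tested genes of the locus. Orange points are kallikrein genes, including KLK14, grey points are other genes, and bars are ± 1 SE. All points lie below 0, with the lowest named gene, KLK2 at -1.48, next to KLK3. The point nearest to 0 is ENSG00000269072.2 at -0.03 (SE 0.23). For genes with few counts the direction is partly set by the filter.

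Genes whose products activate, inhibit or are cut by kallikreins did not share this direction as lists. Membrane-bound serine proteases, relatives that can activate secreted precursors, had 6 tested members of 11 listed, none called without the block (2 higher at an unadjusted p below 0.05) and 4 higher and none lower with it, against 17.1% and 16.2% of all tested genes. PRSS8 (prostasin) was at 19.8, 30.2 and 37.9 CPM in siCtrl and at 28.4, 46.9 and 52.8 CPM in siMED12, higher in each number (log2 fold change 0.54, adjusted p = 0.408, and 2.08e-07 with the block). ST14 (matriptase) and TMPRSS4 were higher without overlap, by 0.23 and 0.86 on the log2 scale (adjusted p = 0.266 and 0.178, and 0.000262 and 0.000969 with the block). TMPRSS2, itself an androgen-regulated gene, had a log2 fold change of 0.17 (adjusted p = 0.718, and 0.0176 with the block). The median of this list was 0.21.

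Of 14 inhibitors of serine proteases, 8 were tested, none was called without the block (1 higher at an unadjusted p below 0.05), and 3 were higher with it, against 17.1% of all tested genes. These were SPINT1, SPINT2 and SERPINB6, with log2 fold changes of 0.23, 0.15 and 0.20 (adjusted p = 4.32e-05, 0.00491 and 0.00441 with the block). SPINT1 and SPINT2 encode the hepatocyte growth factor activator inhibitors, which block matriptase and prostasin. SPINK5, whose product restrains kallikreins in the skin, overlapped between groups (log2 fold change 0.19, adjusted p = 0.81, and 0.179 with the block).

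Of the kallikrein substrates and the receptors they act on, 16 of 29 listed were tested. Without the block 1 was lower and 0 higher, against 0.413% and 0.151% of all tested genes. At an unadjusted p below 0.05, 4 were lower and 3 higher, against 1419 and 1370 of all 17901 tested genes. With the block 4 were lower and 3 higher, against 16.2% and 17.1% of all tested genes. The share of the list was near that background for the higher genes and above it for the lower ones, a difference that was not tested. FN1 (fibronectin), a matrix protein that PSA and KLK2 can cleave, was at 80.4, 84.0 and 70.3 CPM in siCtrl and at 38.7, 30.4 and 26.4 CPM in siMED12 (-1.30 ± 0.15 SE on the log2 scale, adjusted p = 0.0274 in edgeR). IGFBP3, the binding protein of insulin-like growth factors cut by PSA, was at 252, 241 and 337 CPM in siCtrl and at 143, 126 and 235 CPM in siMED12. Its groups were narrowly apart (log2 fold change -0.72, adjusted p = 0.192, and 4.47e-15 with the block). HGF, whose precursor is cut by serine proteases of the HGF activator type, was lower too (-0.95, adjusted p = 0.0716, and 2.94e-13 with the block), whereas LTBP1, which holds latent TGF-beta in the matrix, was higher (0.80, adjusted p = 0.0616, and 2.93e-09 with the block). The semenogelin genes SEMG1 and SEMG2 had 0 counts in every library.

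Transcription factors and cofactors of prostate cells were compared because kallikrein genes are among their targets. Of 18 tested genes of 20 listed, none was called without the block (5 higher and 0 lower at an unadjusted p below 0.05), and 7 were higher and 5 lower with it, against 17.1% and 16.2% of all tested genes, with a median of 0.07. HOXB13, a homeodomain factor of the prostate epithelium, and NCOA1, a steroid receptor coactivator, were higher without overlap (0.39 and 0.63, adjusted p = 0.224 and 0.126, and 4.1e-10 and 1.98e-09 with the block). EHF, an epithelial ETS factor, was at 193, 158.5 and 128 CPM in siCtrl and at 148, 117 and 105.5 CPM in siMED12. Its groups overlapped, but it was lower in each number (-0.37, adjusted p = 0.353, and 4.75e-08 with the block).

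**Figure D4:**
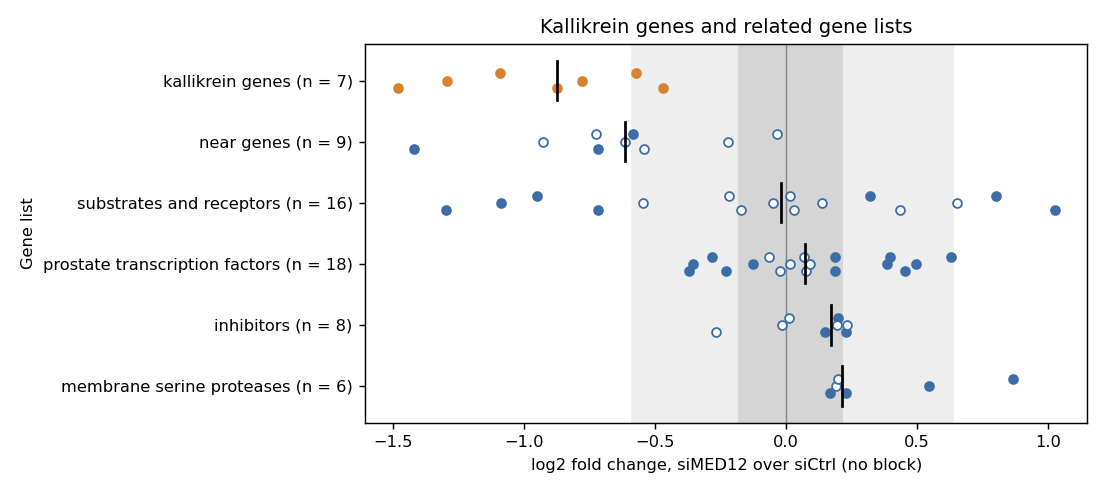
Log2 fold change without the block for the tested members of the kallikrein family (orange) and of 5 related lists (blue). Filled points had an adjusted p below 0.05 in the blocked fit, open points did not, and black bars mark list medians. The dark and light grey bands hold the middle 50% and 90% of all 17901 tested genes. All 7 kallikrein points lie left of 0, with a median of -0.87, and the 9 genes near them have a median of -0.62.

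Among 10666 genes outside the family with a mean of at least 10 CPM, those whose log2 CPM over the 6 libraries correlated most with the mean of KLK2 and KLK3 were TMSB10 (Pearson r 0.994), MIR1244-2 (0.992), F3 (0.991) and ATP6V0A2 (0.990). They encode an actin-binding thymosin, an annotated microRNA, tissue factor and a subunit of the vacuolar proton pump. The microRNA has several near-identical copies and the libraries were poly(A) libraries, so which RNA its counts came from is uncertain. The profiles of these genes combined lower values in siMED12 with the low replicate 2 and the high replicate 3. F3, for example, was at 14.2, 11.5 and 16.1 CPM in siCtrl and at 8.61, 6.90 and 10.0 CPM in siMED12. In all, 102 of the 10666 genes had an r above 0.95.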

How the data were processed

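The authors sequenced strand-specific poly(A) libraries and, per their methods, aligned and counted reads with Rsubread against GRCh38.p13 with Gencode release 43. The version, the use of strand and the treatment of reads with several matches are not given in the sources used here. The deposited counts are raw reads per gene. The deposited log2 CPM values (17901 genes) differed by at most 4.96e-09 from values recomputed here with TMM and a prior count of 2.

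Counts were tested with edgeR 4.0.16 in R 4.3.3 (expression filter, TMM, quasi-likelihood F-test, treatment only, Benjamini-Hochberg adjustment over all tested genes, threshold 0.05), since the methods section of the study names edgeR and no block for its tests. The study also showed a batch-corrected heatmap of these libraries, and its batch variable is not given in the sources used here. SE was derived from the F statistic. Deviations from the group means went together in same-numbered libraries (correlations of 0.532, 0.373 and 0.643, against -0.460 to -0.0233 between numbers). Such deviations sum to 0 in each group, so the negative values between numbers follow on balance from the positive ones. The numbers were therefore treated as pairing the libraries, though the labels do not state it. The fit with the number as a block is given beside each call that it changes. Its p-values rest on 3 libraries per group and on variance pooled over all genes, so how small they are should not be read as graded evidence. The study's methods speak of biological replicates. If the numbers mark technical repeats, p-values measure only that spread. No replicates were duplicates (chi-square per degree of freedom from 10.3 to 40.7).

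The members and lists were chosen with earlier results of these data known. Named genes were all members, MED12, up to 4 genes per list with the smallest p in the blocked fit and a mean of at least 1 CPM, any list gene called without the block, and the 5 genes most like KLK2 and KLK3 (mean of at least 10 CPM), and some genes that the rule names are not reported here. Positions and exons came from Gencode release 44 on the same assembly. Alternatives were DESeq2 1.42.0 (size factors, Wald test), library size only, limma 3.58.1 on the deposited values, other filters and left-out libraries. The fit was tested on simulated data.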

Additional observations from a re-analysis of the deposited data

How the results depend on the processing

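With the replicate block, 7 kallikrein genes were lower in place of 2 (of all 17901 tested genes, 2908 in place of 74). With the block and library size only, 7 were lower (2413 of all 17901). With the block and no filter, a setting chosen after seeing the data, 7 were lower as well (2753 of all 34030). With the block and without both libraries of 1 number, 6 or 7 were lower (2578 to 2654 of all tested genes). The DESeq2 Wald test gave 4, as did the unblocked fit with no filter beyond 1 count, namely KLK1, KLK2, KLK3 and KLK4 in both. Across the fits that left out 1 library, between 0 and 3 were lower (0 without siCtrl replicate 1 or 2 or siMED12 replicate 1 or 2, edgeR fits in which 0 of all tested genes were called in either direction). Without siCtrl replicate 3, 1 was lower (37 of all 18336 tested genes), and without siMED12 replicate 3, 3 were (29 of all 18281). No setting made a kallikrein gene higher. In the related lists (57 tested genes), 1 gene was lower and 0 were higher without the block (74 and 27 of all 17901 tested genes). The counts became 12 and 17 with the block (2908 and 3058 of all) and 12 and 19 with the block and library size only (2413 and 3807). With the block and no filter they were 12 and 17 of 80 (2753 and 2841 of all 34030). With the block and 1 number left out they were 10 to 13 and 14 to 16 of 57 (2578 to 2654 and 2070 to 2375 of all). The DESeq2 Wald test gave 4 and 3 of 47 (493 and 331 of all 14428). The unblocked fit with no filter gave 4 and 2 of 80 (290 and 186 of all 34030). Without 1 library the counts were 0 to 1 and 0 (0 to 37 and 0 to 8 of all). The MED12 log2 fold change ranged from -1.90 to -1.45 without 1 library, and its adjusted p was above 0.05 in 4 of those 6 fits (0.0818 to 0.186). Fits with 5 libraries have fewer samples. The other causes were not tested. The KLK11 log2 fold change ranged from -1.16 to 0.0129 without 1 library, the last (adjusted p = 0.992) without siCtrl replicate 3. In the blocked fit without replicate 1, KLK11 was the member not called.

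The log2 fold changes moved less than the calls. Over 18 alternatives they ranged from -1.78 to -1.28 for KLK2, from -1.45 to -1.11 for KLK3, from -1.20 to -0.99 for KLK4, from -0.84 to -0.74 for KLK1, from -1.12 to -0.64 for KLK15 and from -0.77 to -0.34 for KLKP1. The 6 ratios kept their direction in all 42 values recomputed with another pseudocount or without 1 library. Scaling by library size moved the median of all genes from 0.02 to 0.06. Fewer than 50 counts per group limited KLK10 and KLK13.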
